A study of Mus musculus with 18 samples.

Results

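Vitamin A reaches a cell as retinol and acts there mainly as retinoic acid. Stra6, a membrane receptor, takes retinol up from its plasma carrier. Dehydrogenases such as Rdh10 and Dhrs9 oxidise retinol to retinal, the Aldh1a enzymes oxidise retinal to retinoic acid, Crabp2 carries retinoic acid to nuclear receptors such as Rarg, and Cyp26b1 breaks it down. In the epidermis, retinoic acid is known for its effects on how keratinocytes divide and cornify. In the nervous system it is known as a signal in development and after injury.

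The 9 genes described here are Stra6, Rdh10, Dhrs9, Aldh1a1, Aldh1a2, Aldh1a3, Crabp2, Rarg and Cyp26b1, chosen by name. Each had 1 probe set of its own, among 19938 genes with such a probe set. Alcohol dehydrogenases were left out. They were measured on 18 Affymetrix Mouse Gene ST arrays, 3 in each of 6 groups. Epidermis came from CFA mutant, CFA control, naive mutant and naive control mice, and dorsal root ganglia (DRG, L1 to L6, which hold the cell bodies of sensory neurons) came from naive mutant and naive control mice. Mutant mice were K14Cre-Trpa1fl/fl, in which exons 22 to 24 of the ion channel gene Trpa1 are floxed, and control mice were K14Cre-Trpa1+/+, called wild type in the labels. Both genotypes therefore carried Cre driven in keratinocytes by the promoter of keratin 14. They were adult males of at least 7 weeks on a mixed C57BL/6, CBA and Swiss Webster background, and their colonies had been bred separately for generations, so genotype and colony cannot be told apart. Complete Freund's adjuvant (CFA), which inflames the injected hindpaw, was used, and 50 µl had been given 2 days earlier. No array came from a vehicle-injected paw, so CFA epidermis was set against naive epidermis.

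Values are RMA log2 signals, a scale on which 1 unit is a doubling. Background on an array was set by 1223 probe sets of odorant, trace-amine and vomeronasal receptors, as their 95th percentile, and it lay at 4.57 to 4.78 in epidermis and at 5.78 to 5.93 in DRG. Replicates correlated at 0.986 to 0.991 in epidermis and at 0.991 to 0.993 in DRG, and 3 arrays a group limit the precision of each difference. The labels were checked against marker genes. Keratinocyte markers averaged 11.70 to 11.87 on the epidermis arrays and 5.76 to 6.51 on the DRG arrays, whereas sensory neuron markers averaged 11.42 to 11.67 on the DRG arrays and 4.50 to 4.78 on the epidermis arrays. Trpa1 itself was below background on all 12 epidermis arrays, and in DRG it read 8.44 to 8.84 in mutant mice and 8.89 to 9.08 in control mice. No source used here says whether its probes lie within the deleted exons. The paper found no DNA product of the excision in DRG of either genotype, and no test of Trpa1 is given here.

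Promoter sequence was looked up for the members because 5 of them fell together after CFA, as described below. RefSeq's promoter table (GRCm38.p6) held 11 windows for 6 of the 9 members, Stra6, Dhrs9, Aldh1a1, Aldh1a2, Rarg and Cyp26b1. The 250 bases before each start site were searched on both strands for a TATA box (TATAAA), a retinoic acid receptor core site (AGGTCA) and an AP-1 site (TGANTCA). In these 250 bases, 12.4% of the 32817 windows in the table held the first, 14% the second and 6.75% the third. The 160 bases before the start site are shown for the fallen members with a match, with matches in capitals. In Dhrs9 the capitals TTTATAAA are overlapping TATA matches on opposite strands.
Dhrs9, chr2:69380302-69380461, plus strand: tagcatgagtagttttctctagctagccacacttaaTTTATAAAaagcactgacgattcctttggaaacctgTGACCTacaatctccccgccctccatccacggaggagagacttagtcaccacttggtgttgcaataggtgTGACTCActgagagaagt
Cyp26b1, chr6:84593811-84593970, minus strand: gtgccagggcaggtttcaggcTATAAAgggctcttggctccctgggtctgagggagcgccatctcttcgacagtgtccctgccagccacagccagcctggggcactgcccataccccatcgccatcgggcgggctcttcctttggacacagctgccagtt
Dhrs9 held all 3 motifs and Cyp26b1 the TATAAA motif alone. The first TATAAA match began at position -124 from the start site in Dhrs9 and at -139 in Cyp26b1. None of the 3 was found in the 4 windows of Stra6. Of the remaining windows, 1 of 2 for Rarg held a core site and 1 of 2 for Aldh1a1 an AP-1 site. A match is a run of letters and not a tested binding site.

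The uptake receptor Stra6, the retinol dehydrogenases Dhrs9 and Rdh10, and the retinoic acid hydroxylase Cyp26b1 were lower in CFA than in naive epidermis in both genotypes. Dhrs9 changed most, about 10-fold. Crabp2, the carrier of retinoic acid, fell in control epidermis, and its smaller difference in mutant epidermis missed the threshold. Aldh1a3 and Rarg, both well above background, passed the test in neither genotype. In mutant epidermis 4 of the 9 members were lower after CFA and 0 higher at an adjusted p under 0.05 (limma, Benjamini-Hochberg over 23410 probe sets), where 13.1% of all probe sets were lower and 12.9% higher. In control epidermis 6 were lower and 1 higher, where 14.8% of all probe sets were lower and 11.5% higher. Of those 7, Aldh1a1 and Aldh1a2 lay at or below background, which leaves 5 measurable falls. The median log2 fold change of the 9 members was -0.39 in mutant and -0.76 in control epidermis, against 0.04 and 0.03 over all probe sets tested in the same genotypes. At an unadjusted p under 0.05 were 8995 of the 23410 probe sets in mutant and 9093 in control epidermis (limma). How many of all probe sets had CFA and naive arrays that did not overlap was not counted. Where this is given below for a member, it does not by itself set that member apart. In RNA from a whole tissue, fewer cells of a type and less RNA per cell cannot be told apart.

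**Figure D1:**
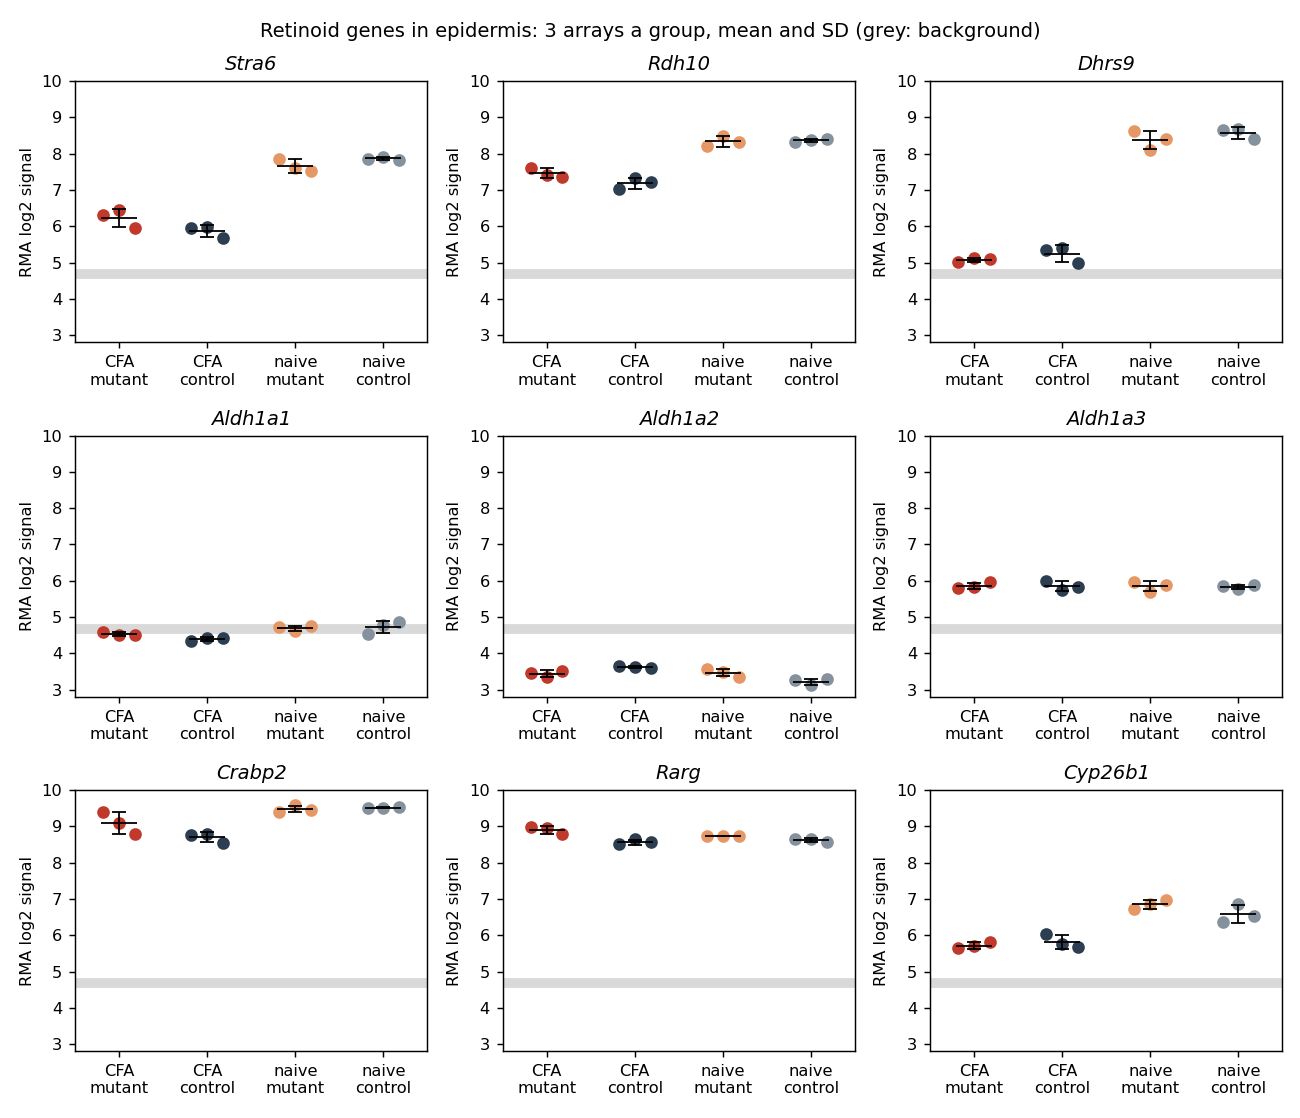
RMA log2 signal of the 9 retinoid genes on the 12 epidermis arrays. Points are arrays, 3 in each of CFA mutant, CFA control, naive mutant and naive control epidermis, bars are the mean and SD, and the grey band is the range of the background. Stra6, Rdh10, Dhrs9 and Cyp26b1 were lower on every CFA array than on every naive array, whereas Aldh1a2 lay below background on all 12.

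Stra6 read 6.31, 6.44 and 5.96 in CFA mutant epidermis, against 7.87, 7.61 and 7.51 in naive mutant epidermis. It read 5.96, 5.97 and 5.69 in CFA control epidermis, against 7.86, 7.91 and 7.83 in naive control epidermis. No CFA array reached a naive array in either genotype, and the lowest naive array stood more than 1 log2 unit above the highest CFA array. Stra6 fell 2.69-fold in mutant epidermis (log2 fold change -1.43 ± 0.14, SE, adjusted p = 0.000198) and 3.99-fold in control epidermis (log2 fold change -1.99 ± 0.10, SE, adjusted p = 2.03e-06). By group mean the order of levels was naive control (7.87 ± 0.04), naive mutant (7.66 ± 0.18), CFA mutant (6.24 ± 0.25) and CFA control (5.87 ± 0.16; SD, n = 3 each), and within each treatment the arrays of the genotypes overlapped.

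Rdh10 makes retinal from retinol and is essential for retinoic acid in the mouse embryo. It read 7.62, 7.42 and 7.36 in CFA mutant epidermis, against 8.20, 8.48 and 8.33 in naive mutant epidermis. In CFA control epidermis it read 7.03, 7.33 and 7.21, against 8.32, 8.37 and 8.41 in naive control epidermis. The treated and naive arrays did not overlap. The fall was 1.83-fold in mutant epidermis (log2 fold change -0.87 ± 0.10, SE, adjusted p = 0.000519) and 2.26-fold in control epidermis (log2 fold change -1.18 ± 0.10, SE, adjusted p = 3.59e-05). The naive genotypes, at means of 8.34 in mutant and 8.37 in control epidermis, were neighbours that did not differ beyond their spread, and all 3 CFA mutant arrays stood above the 3 CFA control arrays.

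Dhrs9 is a short-chain dehydrogenase that can oxidise retinol and some steroids. Its signal was 5.02, 5.13 and 5.09 in CFA mutant epidermis, against 8.63, 8.11 and 8.39 in naive mutant epidermis. The CFA control arrays gave 5.35, 5.41 and 4.98, against 8.64, 8.68 and 8.39 for the naive control arrays. All 6 CFA arrays were still above background, by less than 1 log2 unit. Dhrs9 fell 9.82-fold in mutant epidermis (log2 fold change -3.30 ± 0.12, SE, adjusted p = 8.57e-07) and 10.01-fold in control epidermis (log2 fold change -3.32 ± 0.13, SE, adjusted p = 6.74e-07). It ranked 54th by p among 23410 probe sets in mutant epidermis and 39th in control epidermis. The genotypes overlapped in both treatments.

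Of the enzymes that make retinoic acid itself, Aldh1a3 alone was measured well above background in epidermis, and it passed the test in neither genotype. Aldh1a3 (Raldh3) read 5.81, 5.82 and 5.96 in CFA mutant epidermis, against 5.96, 5.69 and 5.88 in naive mutant epidermis. In CFA control epidermis it read 6.00, 5.74 and 5.83, against 5.86, 5.78 and 5.88 in naive control epidermis. All 4 groups overlapped, about 1 log2 unit above background, and the 95% interval of the change after CFA was -0.20 to 0.23 log2 units in mutant epidermis and also -0.20 to 0.23 in control epidermis. Aldh1a1 (Raldh1) read 4.60, 4.51 and 4.51 in CFA mutant epidermis, against 4.73, 4.60 and 4.74 in naive mutant epidermis. In CFA control epidermis it read 4.33, 4.42 and 4.42, against 4.53, 4.78 and 4.86 in naive control epidermis. It was below background on all 6 CFA arrays and above it on 2 of 3 naive arrays in each genotype, so no fold is given. Its call in control epidermis (adjusted p = 0.043, limma) was lost when any of 5 of the 6 arrays was left out, namely each of the 3 CFA arrays and the second and the third naive arrays (adjusted p = 0.070 to 0.141). Aldh1a2 (Raldh2) read 3.34 to 3.56 on the mutant arrays and 3.12 to 3.65 on the control arrays, below background on all 12 epidermis arrays, and no fold is given. Its call as higher after CFA in control epidermis (adjusted p = 0.0081, limma) is a difference between signals that were both below background.

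Crabp2, which delivers retinoic acid to its nuclear receptors, gave 9.38, 9.08 and 8.79 in CFA mutant epidermis, against 9.41, 9.58 and 9.44 in naive mutant epidermis. It gave 8.77, 8.80 and 8.54 in CFA control epidermis, against 9.50, 9.50 and 9.54 in naive control epidermis. The first CFA mutant array stood close under the naive mutant arrays, and the other CFA arrays lay clearly lower. Crabp2 fell 1.76-fold in control epidermis (log2 fold change -0.81 ± 0.10, SE, adjusted p = 0.00027). In mutant epidermis its log2 fold change was -0.39 (standard error 0.14, adjusted p = 0.0737), and without the first CFA mutant array it was -0.54 with an adjusted p of 0.0156 (limma).

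Rarg, the main retinoic acid receptor of epidermis, read 8.98, 8.95 and 8.78 in CFA mutant epidermis, against 8.72, 8.74 and 8.73 in naive mutant epidermis. It read 8.50, 8.64 and 8.56 in CFA control epidermis, against 8.66, 8.64 and 8.57 in naive control epidermis. The CFA mutant arrays were the highest 3 of the 12. Its log2 fold change after CFA was 0.17 in mutant epidermis (95% interval -0.01 to 0.35, adjusted p = 0.146) and -0.06 in control epidermis (95% interval -0.25 to 0.13, adjusted p = 0.654), and neither passed the test.

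Cyp26b1, which hydroxylates retinoic acid and so ends its action, read 5.64, 5.69 and 5.81 in CFA mutant epidermis, against 6.73, 6.87 and 6.97 in naive mutant epidermis. In CFA control epidermis it read 6.04, 5.76 and 5.67, against 6.37, 6.86 and 6.52 in naive control epidermis. Treated and naive arrays did not overlap in either genotype. It fell 2.20-fold in mutant epidermis (log2 fold change -1.14 ± 0.09, SE, adjusted p = 5.68e-05) and 1.70-fold in control epidermis (log2 fold change -0.76 ± 0.14, SE, adjusted p = 0.00425). The synthesis gene Rdh10 and the breakdown gene Cyp26b1 were thus both lower after CFA.

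**Figure D2:**
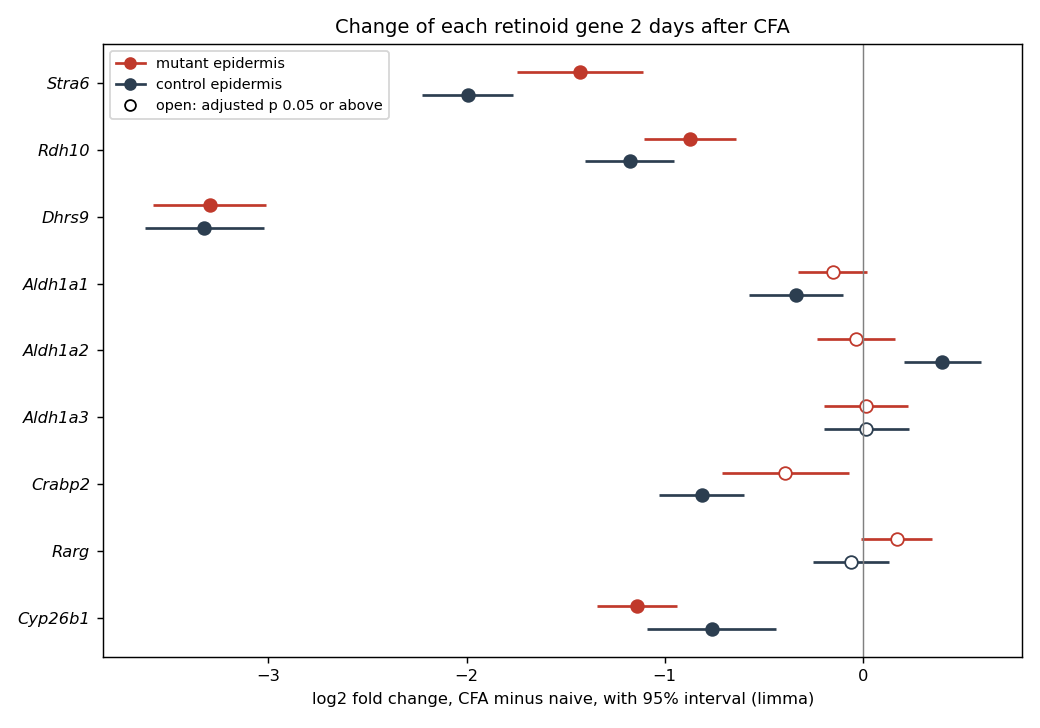
Log2 fold change of each retinoid gene, CFA minus naive, with its 95% interval from limma, in mutant (red, upper) and control (dark, lower) epidermis, 3 arrays a group. Filled points passed an adjusted p under 0.05. Dhrs9 lies at -3.30 in mutant and -3.32 in control epidermis, and Aldh1a3 at 0.02 in both. The filled control points of Aldh1a1 and Aldh1a2 come from signals at or below background.

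Whether the response to CFA differed between genotypes was tested on all 12 epidermis arrays as an interaction. It was called for 0 of the 9 members and for 0.0256% of all probe sets (limma), with 3 members and 1934 of the 23410 probe sets at an unadjusted p under 0.05. For Stra6 the response was less negative in mutant than in control epidermis by 0.57 log2 units (95% interval 0.18 to 0.96, unadjusted p = 0.00784, adjusted p = 0.405, limma). For Crabp2 the difference was 0.42 (95% interval 0.04 to 0.81, adjusted p = 0.553), and for Cyp26b1 it was -0.38, in the other direction (95% interval -0.77 to 0.01, adjusted p = 0.612). The difference for Dhrs9 was 0.03 (95% interval -0.40 to 0.45, adjusted p = 0.987). The remaining member under 0.05 unadjusted was Aldh1a2, below background throughout. These comparisons share arrays with the responses given above, so they are no separate evidence.

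Between the genotypes after CFA, 0 of the 9 members were called, where 0.179% of all probe sets were called. At an unadjusted p under 0.05 there were 4, all higher in mutant epidermis: Rarg, Stra6, Crabp2 and Rdh10, where 2098 of the 23410 probe sets were under 0.05 in either direction. Rarg had the smallest p of these and averaged 8.90 ± 0.10 in CFA mutant and 8.57 ± 0.07 in CFA control epidermis (SD, n = 3 each; log2 fold change 0.34, standard error 0.10, unadjusted p = 0.00618, adjusted p = 0.289, limma). The log2 fold changes of the other 3 were 0.36 for Stra6, 0.38 for Crabp2 and 0.27 for Rdh10, with adjusted p-values of 0.467 to 0.517. In 3 of the 9 members, Rarg, Rdh10 and Aldh1a1, every mutant array was above every control array, as was so for 8.68% of all probe sets, and Aldh1a1 was below background in both groups. Macrophage and monocyte markers, all 6 measured, averaged 5.45 to 5.50 in CFA mutant and 5.67 to 5.88 in CFA control epidermis, with 2 of 6 called lower in mutant. Langerhans cell markers, 3 of 3 measured, averaged 7.38 to 7.57 in CFA mutant and 7.82 to 7.92 in CFA control epidermis, with 0 called. Their part in the differences of the members was not tested.

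In naive epidermis 0 of the 9 members were called between the genotypes, where 0.0299% of all probe sets were called, and 1 was under 0.05 unadjusted, as were 2093 of the 23410 probe sets. It was Aldh1a2, below background in both groups. The log2 fold changes of the 7 members other than Aldh1a1 and Aldh1a2 lay between -0.21 for Stra6 and 0.27 for Cyp26b1. The interval was -0.43 to 0.02 for Stra6 and -0.03 to 0.56 for Cyp26b1. Every naive mutant array was above every naive control array for 2 members, Rarg and Aldh1a2, and for 7.66% of all probe sets.

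Other genes of the retinoid pathway were taken from 6 lists, with 45 of 50 genes measured by a probe set of their own. After CFA, 13 were lower (28.9%) and 4 higher (8.89%) in mutant epidermis, against 13.1% lower and 12.9% higher of all probe sets. In control epidermis 14 were lower (31.1%) and 3 higher (6.67%), against 14.8% lower and 11.5% higher of all probe sets. The median log2 fold change of the 45 was -0.05 in each genotype, close to that of all probe sets, so the falls were in some of the genes and not in most. Between the genotypes, and for the difference in response, 0 of the 45 were called. Rbp7, a cellular retinol-binding protein, had the smallest p of its list in naive and in CFA epidermis. It read 8.10 to 8.32 in naive mutant epidermis, against 8.37 to 9.09 in naive control epidermis, and 5.78 to 6.48 in CFA mutant epidermis, against 6.23 to 7.29 in CFA control epidermis. Its log2 fold changes between the genotypes, -0.62 in naive and -0.77 in CFA epidermis, did not pass (adjusted p = 0.47 and 0.424, limma). Genes of other lists had smaller p-values that did not pass either. In naive epidermis they were Rdh16 and Hbegf (adjusted p = 0.359 and 0.391, limma), and in CFA epidermis Rdh11 (adjusted p = 0.385). Rdh16 was below background on the naive mutant arrays. In DRG the receptor Rxrg had the smallest p of the 45 (log2 fold change -0.31, adjusted p = 0.482, limma).

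Retinol dehydrogenases and reductases held more of the falls than any other list. Of 13 measured, 6 were lower and 1 higher in mutant epidermis, and 7 were lower and 2 higher in control epidermis. Rdh1, a mouse retinol dehydrogenase, fell 4.90-fold in mutant and 5.51-fold in control epidermis (adjusted p = 2.06e-06 in mutant and 6.8e-06 in control, limma). Rdh9 fell 4.87-fold and Rdh11, a retinal reductase, 2.27-fold in mutant epidermis, against 4.86-fold and 3.21-fold in control epidermis. Rdh12, Rdh13 and Dhrs7 fell 1.47-fold to 1.82-fold in mutant and 1.71-fold to 2.03-fold in control epidermis. Dhrs4 was lower in control epidermis, by 1.28-fold. Rdh7 was called higher in both genotypes from signals below background, and Sdr16c5, an epidermal retinol dehydrogenase, was 1.41-fold higher in control epidermis. Rdh1, Rdh7 and Rdh9 are close paralogues, and signal shared between their probe sets was not assessed.

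Of 10 measured genes of retinol uptake, binding and ester storage, 3 were lower in mutant and 4 in control epidermis, with 0 higher. Rbp7 fell 4.20-fold in mutant and 3.79-fold in control epidermis (adjusted p = 5.64e-05 in mutant and 0.00106 in control, limma). Lipe, a lipase that also splits retinyl esters, fell 2.14-fold in mutant and 2.02-fold in control epidermis. Dgat1, which can esterify retinol, fell 1.30-fold in mutant and 1.38-fold in control epidermis, and Awat2, which can also make retinyl esters, was called lower in control epidermis, where it was above background on 1 of 3 CFA arrays and no fold is given.

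Among the other breakdown enzymes, 3 of 4 measured, Cyp2s1 fell 1.87-fold in mutant and 2.30-fold in control epidermis. Cyp26c1, a close relative of Cyp26b1, was 1.35-fold higher in mutant epidermis (log2 fold change 0.43, adjusted p = 0.00701, limma). Its signals there lay close to background, at 5.03 to 5.25 in CFA mutant and 4.65 to 4.79 in naive mutant epidermis. In control epidermis its log2 fold change was 0.47 and did not pass (adjusted p = 0.0921), and the difference between these responses was -0.04 (adjusted p = 0.98). Of the 5 carotenoid and other retinal-oxidising enzymes, Bco2 was called lower in mutant epidermis and 0 were called in control epidermis, where Aldh1a7 had the smallest p (adjusted p = 0.0775, limma), and both genes were below background in all 4 groups. Of 8 measured receptors, corepressors and their carriers, 2 were higher in mutant epidermis, Rxra, the partner of Rarg, by 1.20-fold and Fabp5, a carrier linked to another receptor of retinoic acid, by 1.30-fold. In control epidermis 0 were called, with Rxra at a log2 fold change of 0.21 (adjusted p = 0.0866, limma).

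Of 10 measured genes known to respond to retinoic acid, 2 were lower in both genotypes. Rarres1, named as a retinoic acid receptor responder, read 6.43 to 7.33 in CFA mutant epidermis, against 9.45 to 9.60 in naive mutant epidermis, and 7.003 to 7.35 in CFA control epidermis, against 9.57 to 9.69 in naive control epidermis. It fell 5.91-fold in mutant and 5.63-fold in control epidermis (adjusted p = 6.33e-05 in mutant and 9.11e-07 in control, limma). Hbegf, a growth factor that retinoids induce in keratinocytes, fell 1.84-fold in mutant and 4.48-fold in control epidermis. The difference between these Hbegf responses, 1.28 log2 units, did not pass (adjusted p = 0.343, limma). Its group means were 7.74 in naive mutant and 8.59 in naive control epidermis, and 6.86 in CFA mutant and 6.43 in CFA control epidermis. Much of the difference in response thus lay between the naive groups. Hbegf did not pass between the genotypes in naive epidermis (log2 fold change -0.86, adjusted p = 0.391, limma) or after CFA (0.43, adjusted p = 0.687). Hoxa5 was 1.23-fold higher in control epidermis. The other genes of this list did not pass in either genotype, so the list as a whole had no single direction.

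**Figure D3:**
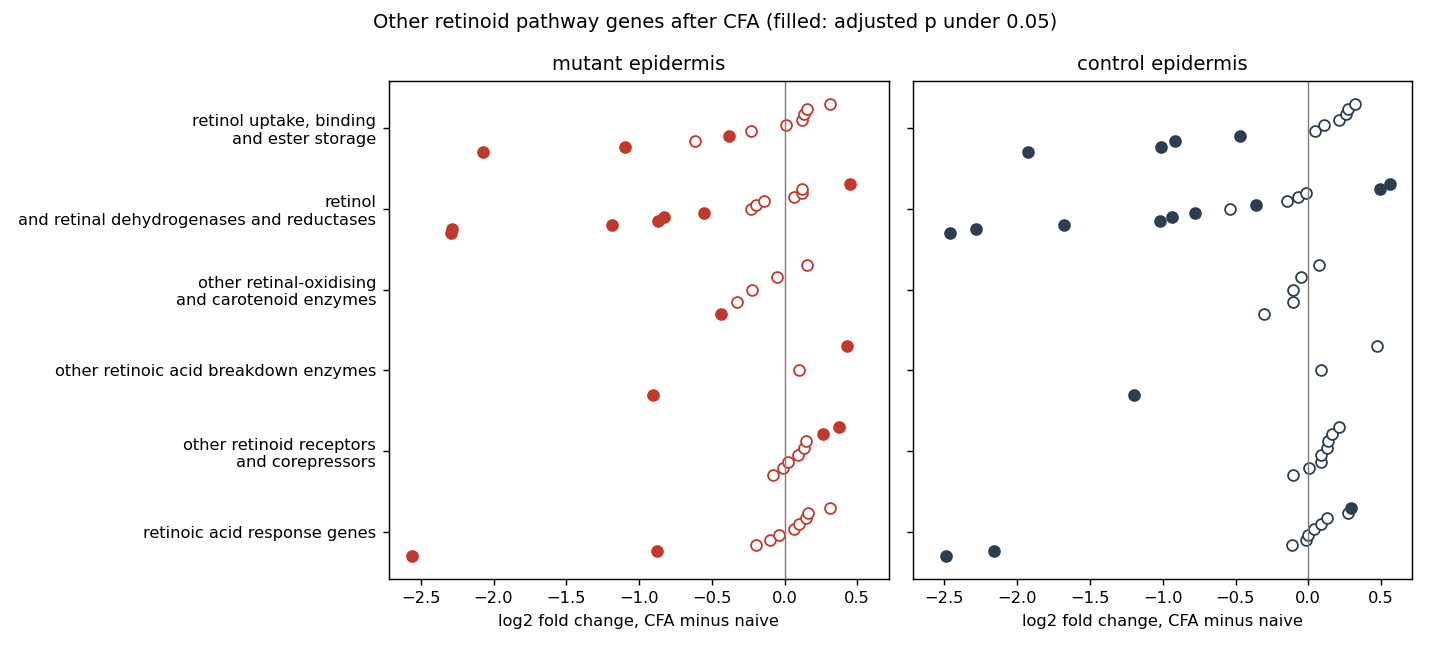
Log2 fold change, CFA minus naive, of the other retinoid pathway genes by list, in mutant (left) and control (right) epidermis. Each point is 1 gene at its brightest probe set, a gene in 2 lists is drawn in both, and filled points passed an adjusted p under 0.05. The filled points to the left are mostly retinol dehydrogenases and genes of uptake and storage, with Rarres1 at -2.56 in mutant and -2.49 in control epidermis.

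Some markers of cell types were also called between CFA and naive epidermis. Among all 23410 probe sets tested, the called share in mutant epidermis was 13.1% downward and 12.9% upward. In control epidermis it was 14.8% downward and 11.5% upward. The marker lists are short, so a single call in a list does not set that list apart from these shares. Of 9 measured keratinocyte markers, 1 was lower and 4 higher in mutant epidermis, and 1 was lower and 3 higher in control epidermis. Krt14, a basal keratin, averaged 12.75 in CFA mutant and 12.37 in naive mutant epidermis, and 12.75 in CFA control and 12.43 in naive control epidermis. Ivl, the cornified envelope protein involucrin, averaged 8.10 in CFA mutant and 9.31 in naive mutant epidermis, and 8.24 in CFA control and 9.05 in naive control epidermis. Krt1, Krt10 and Krt2, also on the list, moved less by mean. In mutant epidermis they averaged 13.09, 13.36 and 13.20 after CFA, and 13.20, 13.42 and 13.30 in naive mice. In control epidermis they averaged 12.90, 13.33 and 13.21 after CFA, and 13.15, 13.40 and 13.28 in naive mice. Of 4 eccrine gland and duct markers, 1 was lower in each genotype. The mean of the 4 was 6.90 to 7.08 in CFA mutant and 7.24 to 7.34 in naive mutant epidermis. In control epidermis it was 6.64 to 7.004 after CFA and 7.17 to 7.20 in naive mice. The lower means came mostly from Aqp5, at 7.82 in CFA mutant against 8.95 in naive mutant epidermis. It averaged 7.48 in CFA control against 8.83 in naive control epidermis. The median log2 fold change of the 4 was -0.03 in mutant and -0.12 in control epidermis. Of 5 neutrophil markers, 2 were called higher in mutant and 0 in control epidermis. Their means were 5.71 to 6.93 in CFA mutant and 4.45 to 5.66 in naive mutant epidermis. In control epidermis they were 5.58 to 7.20 after CFA and 4.58 to 5.86 in naive mice. S100a8 averaged 8.96 in CFA mutant and 6.38 in naive mutant epidermis, and 9.73 in CFA control and 7.36 in naive control epidermis. Its SDs were 1.67 to 1.87, and S100a9 was likewise higher by mean in both genotypes. Ly6g was below background in all 4 groups, and Csf3r was above it on 1 naive mutant array only. The counts therefore do not show a rise limited to mutant epidermis. The differences in the list means came mostly from S100a8 and S100a9, so they are no measure of neutrophil number. Of 3 measured T cell markers, 1 was higher in mutant and 2 in control epidermis, with means of 6.18 to 6.38 in CFA mutant and 5.62 to 5.88 in naive mutant epidermis, and 6.32 to 6.36 in CFA control and 5.55 to 5.84 in naive control epidermis. Of 3 Langerhans cell markers, 0 were called in mutant and 2 were higher in control epidermis, and of 7 fibroblast markers 1 was higher in mutant, and 3 were higher and 1 lower in control epidermis. Of 6 macrophage and monocyte markers, 2 were lower and 1 higher in mutant, and 1 was lower and 2 higher in control epidermis. The part of these cells in the falls of the members was not tested.

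By a fixed rule, the 3 genes with the most similar profile over the 12 epidermis arrays were listed for each member called in epidermis and above background on at least 3 of them, among 15730 probe sets. For Dhrs9 they were Ctsa, Smpd1 and Tex264 (Pearson r of 0.996 to 0.997), of which Ctsa and Smpd1 encode lysosomal enzymes. For Stra6 they were Wdr53, Ift20 and Sccpdh (0.993 to 0.994), for Rdh10 Tent5b, Ttc39b and Fbxo45 (0.991), for Crabp2 Calml3, Agpat4 and Fdps (0.974 to 0.983) and for Cyp26b1 Plcxd1, Kctd4 and Rnf223 (0.973 to 0.974). For Aldh1a1 they were Dph2, Eif5a and Ctxn1 (0.919 to 0.945). The arrays share the CFA treatment, so the coefficients describe a common step between treated and naive arrays.

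In DRG, 0 of the 9 members were called between mutant and control mice, where 0.0726% of all probe sets were called, and 1 was under 0.05 unadjusted, as were 1673 of the 23410 probe sets. It was Dhrs9, which was below background on all 6 arrays. What stood out among the members was the spread between arrays of Aldh1a2, the enzyme known to make retinoic acid in the meninges of the mouse. Aldh1a2 read 5.73, 7.54 and 6.99 in mutant DRG, against 5.95, 7.55 and 5.99 in control DRG. It was high on the second and the third mutant arrays and on the second control array, and within 0.2 of background or below it on the other 3. Its log2 fold change of 0.26 had a 95% interval of -0.91 to 1.43 (adjusted p = 0.926, limma), and became -0.13 without the second mutant array. Crabp2 read 7.14, 7.49 and 7.40 in mutant DRG, against 6.90, 7.55 and 6.90 in control DRG, with the same 3 arrays highest. Aldh1a1 read 6.73, 7.44 and 7.20 in mutant DRG, against 6.50, 6.91 and 7.04 in control DRG, and its highest 2 arrays were the second and the third mutant arrays.

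A list of 10 leptomeningeal marker genes was set beside these values. It was written after the values of Aldh1a2 had been seen and gets no test. Its mean was 6.98, 8.10 and 7.80 on the mutant arrays, against 6.88, 8.14 and 7.14 on the control arrays, and 9 of the 10 genes were above background on all 6. Ptgds, a prostaglandin synthase abundant in the leptomeninges, read 8.70, 11.49 and 10.99 in mutant DRG, against 8.43, 11.31 and 9.02 in control DRG. The 3 arrays high in Aldh1a2 and Crabp2 were also the highest 3 for the list and for Ptgds. Fibroblast markers, 7 of 7 measured, averaged 8.75, 9.08 and 9.16 on the mutant arrays, against 8.96, 9.45 and 9.26 on the control arrays. Keratinocyte markers averaged 6.51, 5.87 and 5.87 on the mutant arrays, against 5.76, 5.87 and 6.14 on the control arrays. They were highest on the first mutant and the third control arrays, both low in Aldh1a2. The first control array, where they were lowest, was low in Aldh1a2 too. The part of other cells in the level of Aldh1a2 was not tested.

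**Figure D4:**
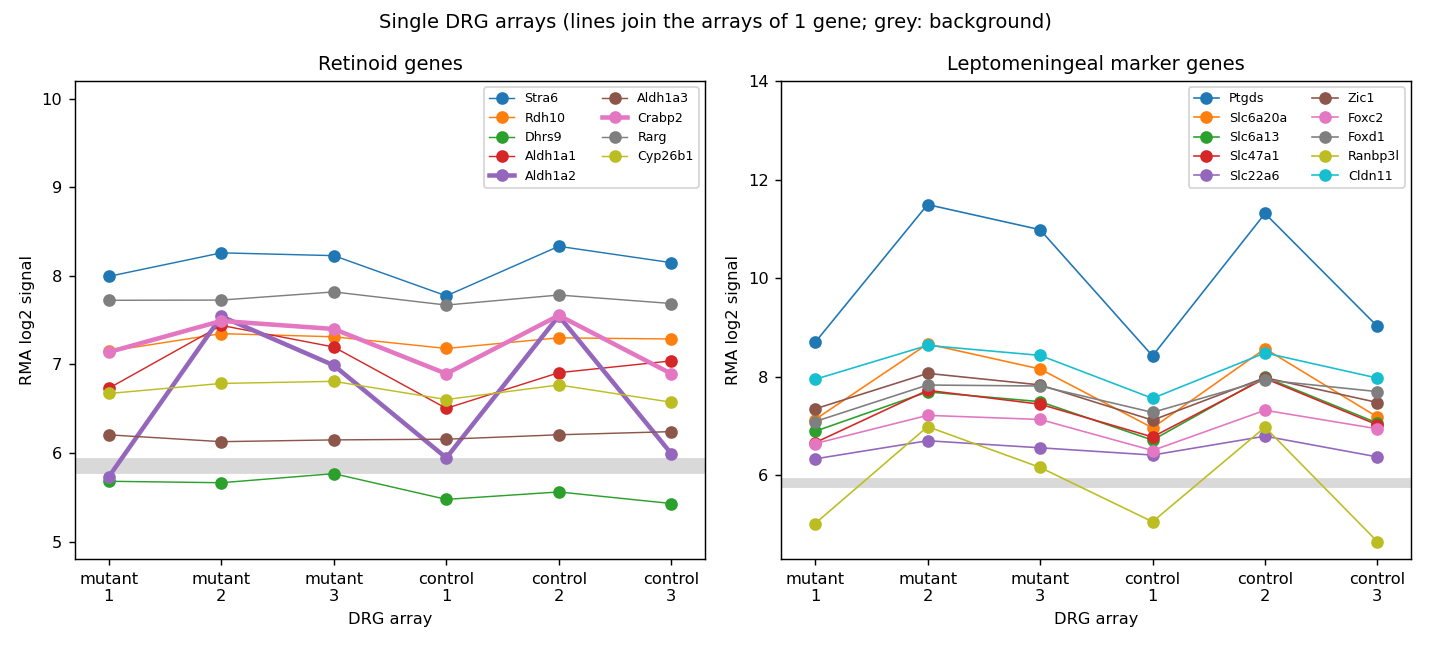
RMA log2 signal of the 9 retinoid genes (left) and of 10 leptomeningeal marker genes (right) on each of the 3 mutant and 3 control DRG arrays. Lines join the arrays of 1 gene and the grey band is the range of the background. Aldh1a2 and Crabp2 (thick lines) and Ptgds were highest on the second and the third mutant arrays and on the second control array.

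Stra6, Rdh10, Rarg and Cyp26b1, like Aldh1a2 and Crabp2, were highest on the second and the third mutant arrays and the second control array. Dhrs9, Aldh1a1 and Aldh1a3 were not. For Rarg the lowest of these 3 arrays read 7.727 against 7.724 on the next array, and for Rdh10 7.301 against 7.287. How many of all probe sets were highest on the same arrays was not counted. The ranges over the arrays were very unequal. The range was 1.82 log2 units for Aldh1a2, 0.66 for Crabp2, 0.56 for Stra6 and 0.15 to 0.24 for Rarg, Rdh10 and Cyp26b1. Stra6 read 7.99, 8.26 and 8.23 in mutant DRG, against 7.77, 8.33 and 8.15 in control DRG. Rarg lay at 7.72 to 7.82 in mutant and 7.67 to 7.78 in control DRG, Rdh10 at 7.15 to 7.35 in mutant and 7.18 to 7.30 in control DRG, Cyp26b1 at 6.67 to 6.81 in mutant and 6.57 to 6.77 in control DRG, and Aldh1a3 at 6.13 to 6.21 in mutant and 6.16 to 6.24 in control DRG. The 95% interval of the difference was -0.16 to 0.19 log2 units for Rdh10 and -0.11 to 0.20 for Rarg.

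Epidermis and DRG arrays have different distributions, so levels were not compared between the tissues, and only the place of a probe set against the background of its own array is given. Dhrs9 was above background on all 12 epidermis arrays and on none of the 6 DRG arrays. Aldh1a2 was above background on none of the 12 epidermis arrays and on 5 of the 6 DRG arrays. Aldh1a1 was above background on 4 of the 12 epidermis arrays, all of them naive, and on all 6 DRG arrays. Stra6, Rdh10, Aldh1a3, Crabp2, Rarg and Cyp26b1 were above background on all 18 arrays.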

How the data were processed

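The deposited values are the authors' log2 signals for probe sets, used as they stand, and the submitters' processing notes name Partek and RMA. For each array 100 ng of RNA entered the labelling protocol, and labelled cDNA was hybridised. The platform's table pairs 23410 probe sets with at least 1 gene, all of which were tested, and 21789 with exactly 1, from which genes are named. Each comparison was fitted on the arrays of its own groups, the difference in response on all 12 epidermis arrays, in R 4.3.3 with limma 3.58.1 (lmFit, eBayes), two-sided, with Benjamini-Hochberg adjustment. The fit was tested on simulated data. Calls needed an adjusted p under 0.05. The arrays are the study's biological replicates. Their numbers were not used as pairs, since the deviations of same-numbered arrays did not correlate at over 0.1 in every pair of any comparison. With so few arrays this rule cannot exclude a pairing, and in DRG the correlations were 0.18, -0.05 and 0.15.

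Named are all 9 members, the genes called in each pathway list or else one of its genes with the smallest p, at the brightest probe set, and the 3 most similar genes per called member. Marker genes, and Trpa1, are named as checks of the labels, and Ptgds, the leptomeningeal list and the Hbegf difference were singled out after their values were seen. Members, lists and tests were chosen with earlier results of these data known. Where both groups lay below background no fold is given. Tables used Python 3.11.15, numpy 2.4.6 and pandas 2.3.3, and figures matplotlib 3.10.9. Alternatives were further quantile normalization, median centring, dim probe sets left out, all probe sets tested, trend and robust options, all epidermis groups in one fit, a replicate block, the methods' ANOVA, an adjusted p under 0.1 each array left out, and DRG without the 2 arrays with raised keratin transcripts.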

Additional observations from a re-analysis of the deposited data

How the results depend on the processing

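The falls of Stra6, Dhrs9, Rdh10 and Cyp26b1 after CFA kept their direction in both genotypes under every alternative run. In control epidermis 7 members were called, and 3 by the methods' ANOVA with its 2-fold minimum, with or without adjusted p-values. The others changed by less than 2-fold. Of these, Cyp26b1 and Aldh1a1 also missed on the adjusted p of that ANOVA (0.0676 and 0.115), whereas Crabp2 and Aldh1a2 did not (0.0112 and 0.0190). Aldh1a1 was also lost with all probe sets tested (adjusted p = 0.0804) and with trend and robust options (adjusted p = 0.0538). In mutant epidermis 4 were called, 3 by the methods' ANOVA, where Rdh10 was under 2-fold, and 5 in the fit of all 4 epidermis groups and at an adjusted p under 0.1, where Crabp2 passed. Leaving out 1 array gave 6 to 7 members in control and 4 to 5 in mutant epidermis, and 0 in every comparison of genotype and of response. With a replicate block 6 members were called in control epidermis and 4 in mutant, and the call lost was Aldh1a1 (adjusted p = 0.0579, limma). The block changed no other call. Leaving out dim probe sets removed members below background, which then have no value.

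Members that passed no test changed sign. Under further quantile normalization Aldh1a3 had a log2 fold change of -0.00278 between genotypes in naive epidermis, -0.00793 in CFA epidermis, -0.00977 after CFA in control and -0.015 in mutant epidermis, and Rarg 0.057 after CFA in control epidermis. Under median centring Aldh1a3 was -0.017 after CFA in control and -0.00513 in mutant epidermis, and 0.012 for the difference in response. Leaving out 1 array gave Aldh1a3 -0.0502 to 0.0847 in naive and -0.0512 to 0.0751 in CFA epidermis, -0.0513 to 0.075 after CFA in control, -0.0609 to 0.074 in mutant and -0.0800 to 0.0672 for the difference in response. In naive epidermis it gave Rdh10 -0.102 to 0.0362 and Aldh1a1 -0.13 to 0.0355. For Aldh1a2 after CFA in mutant epidermis it gave -0.0879 to 0.0171, and for the response difference of Dhrs9 -0.11 to 0.15. In DRG it gave Stra6 -0.0805 to 0.20, Rdh10 -0.0252 to 0.0741 and Aldh1a2 -0.13 to 0.79. The cause was not tested. Signals near background limit Aldh1a1 and Aldh1a2 in epidermis and Dhrs9 in DRG.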
